A study of Homo sapiens with 6 samples.

Results

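The HLA and antigen presentation genes were chosen by their gene symbols on the array, with earlier results of these data known. They comprised 32 genes that build, load or switch on the major histocompatibility complex (MHC). Of these, 31 were measured by at least 1 probe set that names no other gene, among 18132 genes so measured, and LNPEP was not analysed here. They were represented by 126 probe sets that name 1 member each, and 10 further probe sets that name several HLA genes were kept apart. The data were 6 Affymetrix PrimeView arrays of total RNA from MDA-MB-231, an established human line of triple-negative mammary carcinoma with mesenchymal character, grown in DMEM/F12 with fetal bovine serum. In 1 group of 3 arrays the cells had received 5 µM SAHA (vorinostat, an inhibitor of zinc-dependent histone deacetylases) for 8 h, and in the other group of 3 they had received the solvent DMSO for the same time. The labels name no interferon or other cells added to the cultures. Whether the replicates came from separate cultures is not stated, and p-values then reflect the spread among these 6 arrays alone, which may be technical. In bulk RNA, fewer cells that express a gene and less RNA per cell cannot be told apart.

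MHC class I molecules sit on nearly all nucleated cells and show peptides from the cytosol to CD8 T cells. Each consists of a heavy chain (HLA-B, HLA-C, HLA-E and their relatives) and the light chain B2M, and receives peptides that the proteasome cuts, the TAP1-TAP2 pump carries into the endoplasmic reticulum and the aminopeptidases ERAP1 and ERAP2 trim. MHC class II molecules (HLA-DP, HLA-DQ, HLA-DR) show peptides from endosomes to CD4 T cells, with CD74 as a placeholder and HLA-DM as the peptide exchanger, and are normally made by B cells, macrophages and dendritic cells or after interferon gamma. NLRC5 and CIITA are the coactivators of the class I and class II genes, and both act through a promoter complex that holds RFX5, RFXAP, RFXANK and NF-Y.

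After SAHA the class I heavy chains HLA-B, HLA-C and HLA-E rose by about the same amount, and TAP1 rose while its partner TAP2 fell. ERAP1 and ERAP2 fell. Among class II genes, both chains of the peptide exchanger HLA-DM and the endosomal thiol reductase IFI30 rose by more than 2-fold, while 5 of the 6 antigen presenting chains, CD74 and CIITA did not pass the test. In limma's test over all genes (two-sided, Benjamini-Hochberg adjusted p under 0.05), 10 members were higher and 5 lower with SAHA. That is 48.4% of the 31 members, where 48.3% of all genes were called, 24.6% higher and 23.8% lower. The share of members called is therefore that of the array as a whole. The median log2 fold change of the members was 0.03, against -0.01 over all genes, with single members between -1.11 and 1.85. The SAHA values lay above all DMSO values in 11 members and below them in 7, where 28.0% and 27.5% of all genes did so. Calls depended on level over the whole array: 11.9% of genes with a mean log2 value under 5 were called, 39.4% of those from 5 to under 7, and 75.1% of those at 7 or more. Of the members, 3 had a mean under 5 and 14 a mean of at least 7.

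**Figure D1:**
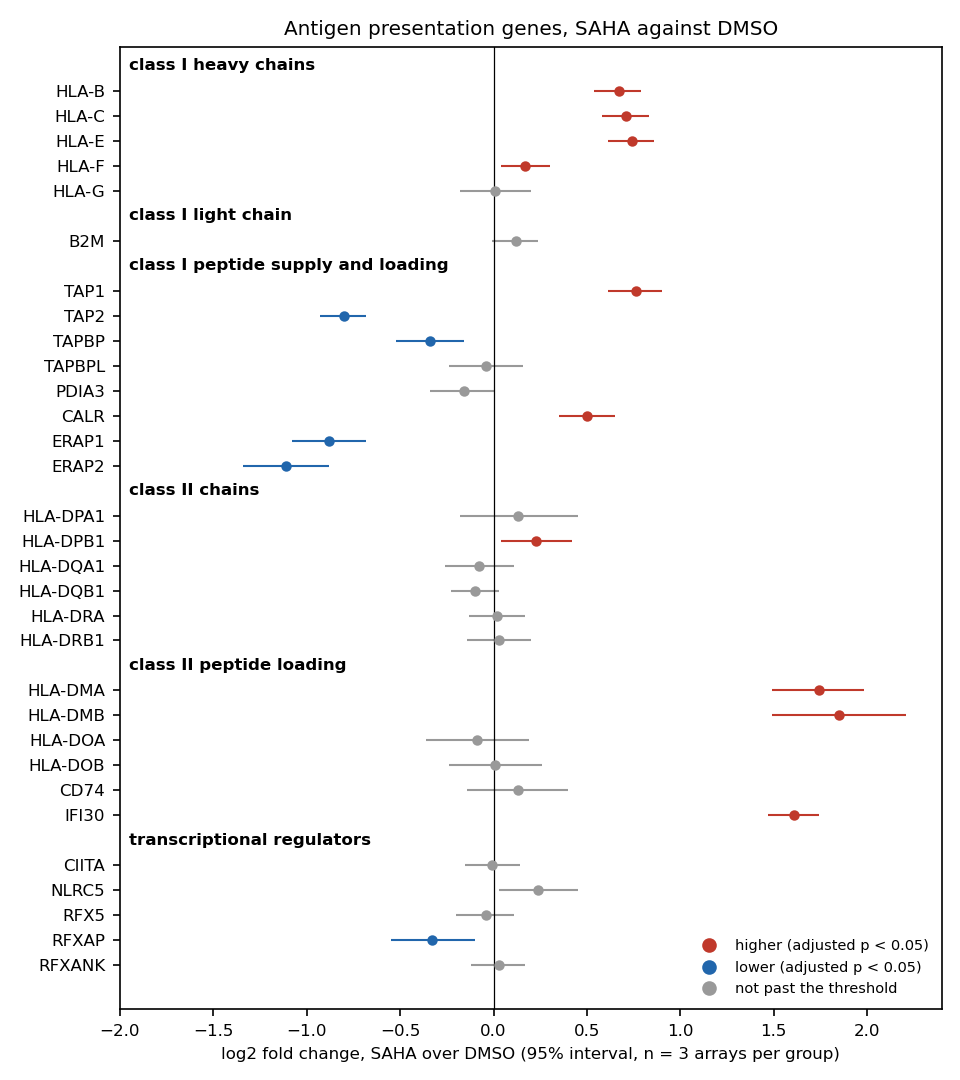
Log2 fold change of SAHA over DMSO (horizontal axis) for each of the 31 measured genes, grouped by role, with the 95% interval from limma (3 arrays per group) and colours for the call. HLA-DMA, HLA-DMB and IFI30 lie to the right at 1.74, 1.85 and 1.61, TAP2, ERAP1 and ERAP2 to the left at -0.80, -0.88 and -1.11, and CIITA at -0.01.

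Of the 5 class I heavy chains, 4 rose and HLA-G did not pass. HLA-B, a classical heavy chain that presents peptides to CD8 T cells, had log2 values of 9.16, 9.10 and 9.19 with DMSO and of 9.84, 9.81 and 9.80 with SAHA. The groups did not overlap, and the difference was 0.67 ± 0.05 (limma's log2 fold change ± SE, n = 3 per group; 1.59-fold, adjusted p = 2.42e-05). HLA-C, another classical chain and a ligand of inhibitory receptors on natural killer cells, was at 9.06, 9.15 and 9.11 in DMSO and at 9.83, 9.82 and 9.78 in SAHA arrays. It rose by 0.71 ± 0.05 (1.63-fold, adjusted p = 1.8e-05). HLA-E, which presents leader peptides of other class I chains to natural killer cell receptors, went from 9.88, 9.95 and 9.97 to 10.66, 10.67 and 10.68. Its rise was 0.74 ± 0.05 (1.67-fold, adjusted p = 1.35e-05). The 3 rises differed from each other by less than the width of their 95% intervals, which ran from 0.54 to 0.79 for HLA-B, from 0.58 to 0.83 for HLA-C and from 0.61 to 0.86 for HLA-E.

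These 3 chains are alike in sequence, and much of their signal comes from probe sets with the suffix _x_at or _s_at, which hold probes that match similar transcripts. HLA-C and HLA-E had no other kind. For HLA-B the single probe set without that mark lay at a mean log2 value of 4.83 and gave 0.07 ± 0.10 (adjusted p = 0.629 over probe sets), while the other 2 gave 0.67 and 0.57. All 6 probe sets of HLA-E were called higher, at 0.62 to 0.78, and all 3 of HLA-C, at 0.51 to 0.71. How far each value belongs to the gene it names was not tested. HLA-F, a nonclassical chain that also reaches the surface without peptide, moved from 5.65, 5.73 and 5.61 to 5.84, 5.84 and 5.81, a rise of 0.17 ± 0.06 (adjusted p = 0.0410). In 12 of 19 other settings it did not pass, including every one that left out an array except DMSO replicate 2, and the mean of its 10 probe sets (0.12). HLA-G, the nonclassical chain of the placenta, was at 0.01 ± 0.08 (95% interval -0.18 to 0.20, adjusted p = 0.932), and none of its 6 probe sets passed. B2M, the light chain shared by all these molecules, was at 13.16, 13.13 and 13.13 in DMSO and 13.20, 13.30 and 13.27 in SAHA arrays. The SAHA values lay above the DMSO values by 0.12 ± 0.05 in the brightest probe set, which did not pass (adjusted p = 0.111). Each of its 8 probe sets was higher with SAHA, by 0.12 to 0.19, and 3 passed over probe sets, of which 2 held identical values.

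The promoters of HLA-B and HLA-C are shown because both genes rose by a like amount in probe sets shared by similar transcripts. Their 250 bases before the RefSeq start site (GRCh38.p14, both on the minus strand, chr6:31357180-31357429 and chr6:31272093-31272342) read as follows, with CCAAT on either strand in capitals.
HLA-B: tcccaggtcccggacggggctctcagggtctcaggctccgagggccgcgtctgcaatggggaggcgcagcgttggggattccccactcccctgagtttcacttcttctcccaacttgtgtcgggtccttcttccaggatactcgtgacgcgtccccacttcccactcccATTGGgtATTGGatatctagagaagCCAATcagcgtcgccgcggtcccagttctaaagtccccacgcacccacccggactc
HLA-C: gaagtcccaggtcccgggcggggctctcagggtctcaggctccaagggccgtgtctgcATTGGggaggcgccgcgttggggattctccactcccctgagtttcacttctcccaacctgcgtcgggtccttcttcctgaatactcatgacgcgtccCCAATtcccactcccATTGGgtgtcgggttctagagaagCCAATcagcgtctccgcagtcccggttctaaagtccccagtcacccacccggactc
CCAAT is the motif of NF-Y in the Y box of MHC promoters. HLA-B held 3 such matches, the nearest 56 to 52 bases before the start, and HLA-C 4, of which 1 lay at the same distance. TGACG, the core of a cAMP response element, lay 106 to 102 bases before the start in HLA-B and 105 to 101 in HLA-C. Over all 35116 RefSeq windows of 250 bases before a start, 11240 held CCAAT on either strand, and 21.2% held TGACG. A match of letters is a description of the reference and not evidence of binding, and the line's own HLA alleles may differ from it.

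**Figure D2:**
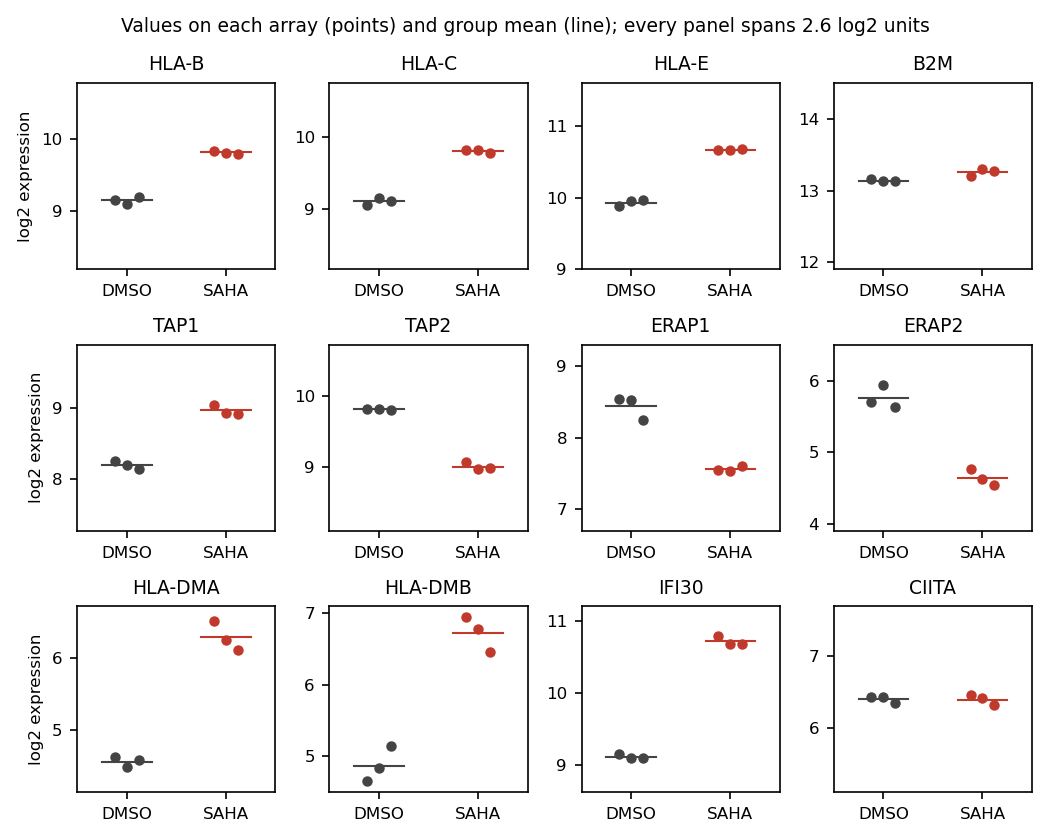
Log2 expression on each array (points, vertical axis, 3 per group) and the group mean (line) for 12 members, each panel spanning the same range of log2 units. The groups do not overlap in any panel but that of CIITA, and HLA-DMA, HLA-DMB and IFI30 show the widest differences of the means, at 1.74, 1.85 and 1.61.

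Peptide supply and loading genes of class I moved both ways: of 8 measured, 2 rose and 4 fell. TAP1 encodes 1 chain of the peptide transporter, and its values were 8.26, 8.20 and 8.15 in DMSO and 9.03, 8.93 and 8.91 in SAHA arrays. It rose by 0.76 ± 0.06 (1.69-fold, adjusted p = 2.36e-05). TAP2, the other chain of the same transporter, was at 9.82, 9.82 and 9.80 in DMSO and at 9.08, 8.98 and 8.99 in SAHA arrays. It fell by 0.80 ± 0.05 (to 0.574 of the DMSO level, adjusted p = 9.44e-06). The chains of this heterodimer thus changed in opposite directions on the same arrays, with no overlap of the groups in either. Both probe sets of TAP1 were called higher (0.63 and 0.76) and all 4 of TAP2 lower (-0.69 to -0.97). Both calls kept their side and direction in all 20 other settings run for each.

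ERAP1, the aminopeptidase that trims peptides to class I length, was at 8.54, 8.53 and 8.25 in DMSO and 7.55, 7.53 and 7.60 in SAHA arrays. It fell by 0.88 ± 0.09 (adjusted p = 6.88e-05). Of its 5 probe sets 3 were called lower. Without probe sets shared by similar transcripts the fall was smaller, 0.37 ± 0.07, and still passed (adjusted p = 0.0033). ERAP2, a related aminopeptidase, went from 5.70, 5.94 and 5.63 to 4.77, 4.63 and 4.54. Its fall of 1.11 ± 0.10 (adjusted p = 4.27e-05) was the largest among the members. In the probe set with the next highest mean ERAP2 was at -0.22 (adjusted p = 0.235), which ended the call. TAPBP, or tapasin, which bridges TAP to the heavy chain, fell by 0.34 ± 0.08 (adjusted p = 0.00738), from 9.99, 10.03 and 10.11 to 9.85, 9.64 and 9.62. Only 2 of its 5 probe sets were called lower. In 4 of 20 other settings that call was lost: the next brightest probe set (-0.14), the ACTB covariate (-0.37) and centring on ribosomal protein genes (-0.20) or poly-A spike-ins (-0.16).

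CALR, or calreticulin, the lectin chaperone of newly made heavy chains, rose by 0.50 ± 0.06 (adjusted p = 0.000347), from 8.76, 8.60 and 8.78 to 9.20, 9.22 and 9.21. PDIA3, the disulfide isomerase bound to tapasin, lay at 10.45, 10.41 and 10.66 in DMSO and at 10.34, 10.33 and 10.35 in SAHA arrays. The SAHA values were below all DMSO values, yet the difference of -0.16 ± 0.08 did not pass (adjusted p = 0.122). TAPBPL, a tapasin relative that edits peptides outside the loading complex, was at -0.04 ± 0.09 (adjusted p = 0.768) in its brighter probe set. Its other probe set, which is shared by similar transcripts, gave -1.01 ± 0.09 (adjusted p = 4.58e-05 over probe sets), so its value depends on the probe set.

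TAP1 starts beside PSMB9, which encodes an immunoproteasome subunit and is read in the opposite direction. In RefSeq (GRCh38.p14) their start sites lie 488 bases apart, so that the stretch between them is covered by the windows chr6:32853705-32853954 on the minus strand for TAP1 and chr6:32853942-32854191 on the plus strand for PSMB9, which share 13 bases. The window of TAP2, chr6:32838740-32838989 on the minus strand, is shown beside them because TAP2 moved the other way. Capitals mark, on either strand, CCAAT and the core of an interferon stimulated response element, searched as GAAA, any 2 bases and GAAA.
TAP1: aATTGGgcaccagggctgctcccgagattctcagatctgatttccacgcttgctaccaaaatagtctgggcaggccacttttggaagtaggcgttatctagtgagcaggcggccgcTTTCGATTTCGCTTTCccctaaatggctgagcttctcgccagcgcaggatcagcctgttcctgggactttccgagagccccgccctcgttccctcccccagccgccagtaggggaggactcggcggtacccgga
PSMB9: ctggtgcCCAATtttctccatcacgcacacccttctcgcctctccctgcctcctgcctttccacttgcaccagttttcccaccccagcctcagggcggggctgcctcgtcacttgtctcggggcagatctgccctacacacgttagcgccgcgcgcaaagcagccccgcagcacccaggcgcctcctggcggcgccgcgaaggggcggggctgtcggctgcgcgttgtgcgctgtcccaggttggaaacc
TAP2: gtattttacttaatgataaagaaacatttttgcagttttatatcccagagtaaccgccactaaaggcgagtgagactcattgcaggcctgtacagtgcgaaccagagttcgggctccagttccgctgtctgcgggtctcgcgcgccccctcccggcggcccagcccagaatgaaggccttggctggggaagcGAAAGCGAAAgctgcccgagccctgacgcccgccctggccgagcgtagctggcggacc
PSMB9 rose with TAP1, by 0.77 ± 0.06 (adjusted p = 2.8e-05), from 8.72, 8.79 and 8.75 to 9.62, 9.44 and 9.51. The interferon core was found in the windows of both TAP1, in overlapping matches 134 to 125 and 128 to 119 bases before the start, and TAP2, 58 to 49 bases before the start. It was present in 5 of the 12 class I windows (B2M, HLA-F, TAP1, TAP2 and TAPBP), in 0 of the 11 class II windows and in 3.02% of all windows. Of these 5 genes, 2 were called higher, 2 lower and 1 did not pass, so genes with the match moved both ways.

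Of the 6 class II antigen presenting chains 1 was called higher and 5 did not pass the test. HLA-DRA, the invariable alpha chain of HLA-DR, was at 3.66, 3.85 and 3.78 in DMSO and 3.78, 3.77 and 3.80 in SAHA arrays. The difference was 0.02 ± 0.06 (95% interval -0.13 to 0.17, adjusted p = 0.811). The only HLA-DRA probe set not shared by similar transcripts gave 0.25 ± 0.07 (adjusted p = 0.0234 over probe sets). Its mean was 3.75, against 3.77 for the probe set used for the gene. HLA-DRB1, the main beta chain of HLA-DR, was at 0.03 ± 0.07 (-0.14 to 0.20), HLA-DQA1 at -0.08 ± 0.08 (-0.26 to 0.11) and HLA-DQB1 at -0.10 ± 0.06 (-0.23 to 0.03). HLA-DQB1 had values of 5.77, 5.66 and 5.77 with DMSO and of 5.65, 5.61 and 5.65 with SAHA, so its groups did not overlap although it did not pass (adjusted p = 0.197). HLA-DPA1, the alpha chain of HLA-DP, was at 0.13 ± 0.14 (-0.18 to 0.45). Its partner HLA-DPB1 was at 7.43, 7.37 and 7.41 in DMSO and 7.52, 7.81 and 7.59 in SAHA arrays. The rise of 0.23 ± 0.08 passed narrowly (adjusted p = 0.0463), and 12 of 20 other settings ended the call, including leaving out any 1 array but SAHA replicate 1 (0.15 without SAHA replicate 2, adjusted p = 0.112). Of the 13 probe sets of HLA-DPB1, 3 were called higher and 10 did not pass. A p that misses the threshold does not show that a chain was level.

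No detection call comes with these values. The 23 control sets for background, which match no transcript, had means from 2.59 to 10.46 by base content, with a median of 3.26 and 15 of them under 5. A member with a low log2 value can therefore not be called present or absent, and its fold change may be understated.

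Of the 6 genes of class II peptide loading 3 rose, HLA-DMA, HLA-DMB and IFI30, by more than any other member, and 3 did not pass. HLA-DMA encodes the alpha chain of HLA-DM, which removes the CD74 remnant from class II molecules and exchanges peptides. Its log2 values were 4.62, 4.48 and 4.58 in DMSO and 6.52, 6.25 and 6.12 in SAHA arrays. The rise was 1.74 ± 0.11 (3.33-fold, adjusted p = 5.86e-06). HLA-DMB, the beta chain, went from 4.65, 4.83 and 5.14 to 6.94, 6.77 and 6.46. It rose by 1.85 ± 0.15 (3.61-fold, adjusted p = 2.89e-05). The chains of HLA-DM so rose together, and on every SAHA array each lay more than 1 log2 unit above the highest DMSO array. The probe sets bear on this directly: both of HLA-DMA (1.74 and 2.17) and all 5 of HLA-DMB (0.30 to 1.90) were called higher, 2 of each without the mark of similar transcripts.

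IFI30, a lysosomal thiol reductase that unfolds antigens by reducing their disulfide bonds, was at 9.15, 9.09 and 9.10 in DMSO and at 10.80, 10.68 and 10.69 in SAHA arrays. It rose by 1.61 ± 0.06 (3.05-fold, adjusted p = 5.66e-07) in its only probe set, which is of the kind shared by similar transcripts. Over all genes 5.93% were called higher by at least 2-fold, and HLA-DMA, HLA-DMB and IFI30 are the members among them. ERAP2 is the one member among the 4.47% called lower by at least 2-fold. The calls of HLA-DMA, HLA-DMB and IFI30 kept their side in every other setting run for them, with values from 1.62 to 2.17 for HLA-DMA, 1.40 to 2.03 for HLA-DMB and 1.57 to 1.79 for IFI30.

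The modulator HLA-DO, which restrains HLA-DM in B cells, did not follow. HLA-DOA was at 4.90, 4.86 and 4.97 in DMSO and 4.91, 5.02 and 4.55 in SAHA arrays (-0.09 ± 0.12, 95% interval -0.36 to 0.19, adjusted p = 0.609). HLA-DOB was at 0.01 ± 0.11 (-0.24 to 0.26, adjusted p = 0.967), and none of the 8 probe sets of the pair passed. CD74, the invariant chain that guides class II molecules to endosomes, was at 6.12, 5.99 and 5.64 in DMSO and at 6.06, 6.05 and 6.02 in SAHA arrays. The groups overlapped and the difference was 0.13 ± 0.12 (-0.14 to 0.40, adjusted p = 0.412). The only CD74 probe set not shared by similar transcripts, at a mean of 4.14, gave 0.36 ± 0.12 (adjusted p = 0.0355 over probe sets), while the other 4 did not pass.

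Promoter windows of HLA-DMA, HLA-DMB and HLA-DOA are printed because the first 2 genes rose together and the last did not. They lie at chr6:32953098-32953347, chr6:32941029-32941278 and chr6:33009592-33009841 (GRCh38.p14, all on the minus strand, 250 bases before the RefSeq start), with CCAAT on either strand in capitals.
HLA-DMA: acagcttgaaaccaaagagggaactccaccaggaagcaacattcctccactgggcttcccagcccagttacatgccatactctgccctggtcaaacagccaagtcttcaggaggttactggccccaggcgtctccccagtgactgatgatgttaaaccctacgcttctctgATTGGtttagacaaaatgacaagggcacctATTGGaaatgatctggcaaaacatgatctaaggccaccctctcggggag
HLA-DMB: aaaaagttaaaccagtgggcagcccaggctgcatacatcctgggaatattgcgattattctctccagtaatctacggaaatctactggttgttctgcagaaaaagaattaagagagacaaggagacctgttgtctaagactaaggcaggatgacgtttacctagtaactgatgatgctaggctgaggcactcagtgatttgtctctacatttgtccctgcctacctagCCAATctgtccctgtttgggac
HLA-DOA: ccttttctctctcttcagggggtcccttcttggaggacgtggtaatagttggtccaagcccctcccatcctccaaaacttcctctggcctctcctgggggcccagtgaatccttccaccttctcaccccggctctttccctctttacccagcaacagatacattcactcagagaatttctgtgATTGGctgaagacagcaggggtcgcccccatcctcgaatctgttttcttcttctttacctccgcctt
HLA-DMA held CCAAT 79 to 75 and 49 to 45 bases before its start, HLA-DMB 22 to 18 bases before it and HLA-DOA 67 to 63. Of the 11 class II windows 10 held CCAAT, all but that of HLA-DPA1, against 6 of 12 class I windows and 11240 of all 35116 windows. The motif was thus found alike in class II genes that rose and in those that did not pass. For members, only the window at the outermost RefSeq start of the gene was searched. That of HLA-DPA1, on the minus strand at 33080748, lies beyond the start of HLA-DPB1, on the plus strand at 33075990. The lack of CCAAT there therefore says nothing of other HLA-DPA1 starts. The same limit holds for class I windows without CCAAT, such as that of HLA-G. The gamma activated sequence TTCNNNGAA was found in 1 of the 26 member windows, that of HLA-DQA1, and in 6.57% of all windows. GGGCGG, a GC box, was found in 13 of the 26, where 42.6% of all windows held it. RefSeq windows were matched by symbol for 26 of the 32 members, those of HLA-E, PDIA3, ERAP1, HLA-DRA, CIITA and NLRC5 not being used here.

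Of the 5 regulators among the members, 1 fell and 4 did not pass. CIITA, the class II coactivator, was at 6.43, 6.43 and 6.34 in DMSO and 6.45, 6.41 and 6.32 in SAHA arrays. The groups overlapped, the difference was -0.01 ± 0.06 (95% interval -0.15 to 0.14, adjusted p = 0.946), and none of its 4 probe sets passed. The dimmest of these CIITA probe sets had a mean of 3.23, near the median of the background control sets (3.26). The range of the control sets (2.59 to 10.46) also holds the means of bright members such as HLA-E (10.3) and IFI30 (9.92). That range therefore does not set CIITA apart. Without detection calls, a change of CIITA may still be understated. Whether CIITA had a part in the rise of HLA-DMA and HLA-DMB was not tested. NLRC5, the class I coactivator, was at 5.67, 5.47 and 5.38 in DMSO and at 5.65, 5.76 and 5.84 in SAHA arrays. It missed the threshold at 0.24 ± 0.09 (adjusted p = 0.0569) and passed in 6 of 19 other settings, among them leaving out the DMSO array of replicate 1 (0.33, adjusted p = 0.0121). Its dimmer probe set gave -0.01.

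RFX5, the DNA-binding subunit of the RFX complex, was at -0.04 ± 0.07 (adjusted p = 0.655), with another of its 3 probe sets called lower (-0.18, adjusted p = 0.0356 over probe sets), and RFXANK, its ankyrin repeat partner, at 0.03 ± 0.06 (adjusted p = 0.784). RFXAP, the RFX-associated protein, fell from 6.10, 6.17 and 6.16 to 5.84, 5.61 and 5.99, by 0.33 ± 0.10 (adjusted p = 0.0227). Its call was lost in 7 of 18 other settings. These were a threshold of 0.01, leaving out the DMSO array of replicate 2 or 3 or the SAHA array of replicate 1, the ACTB covariate (-0.28), and centring on ribosomal protein genes (-0.19) or poly-A spike-ins (-0.15).

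**Figure D3:**
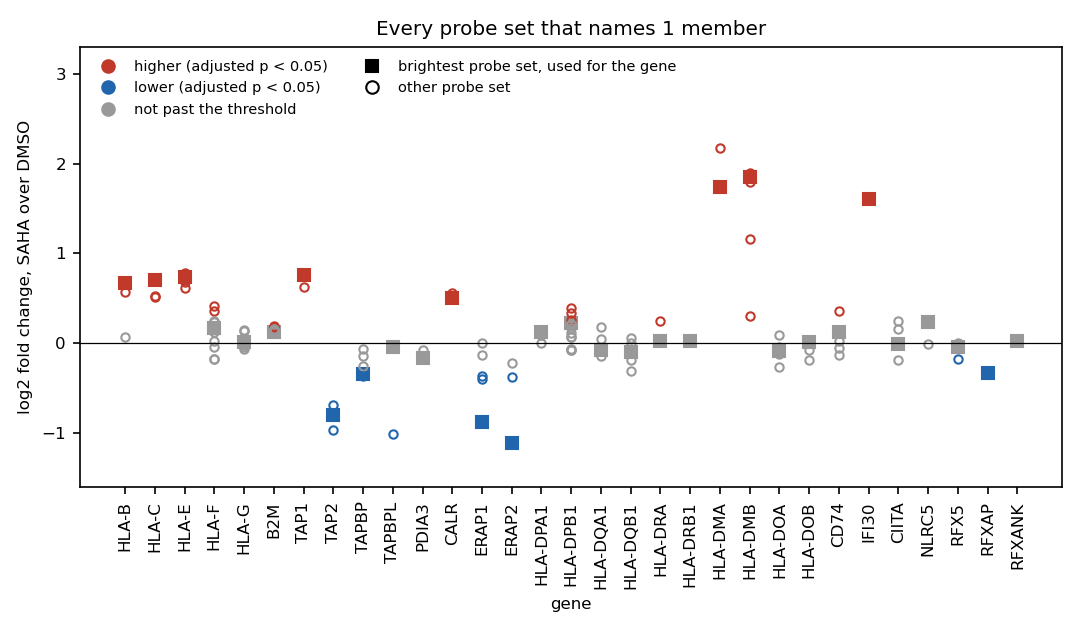
Log2 fold change of SAHA over DMSO (vertical axis) for each of the 126 probe sets that name 1 member (horizontal axis: gene), coloured by the call in limma's test over all probe sets, with squares for the brightest probe set of a gene. Points of HLA-E, TAP1, TAP2, CALR and HLA-DMA lie close together on 1 side of 0, and those of TAPBPL lie apart, at -0.04 and -1.01; the squares of HLA-F and HLA-DPB1 are grey because they miss the threshold over probe sets (adjusted p = 0.0553 and 0.0522).

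Over probe sets, 33 of the 126 were called higher and 14 lower, where 22.2% and 24.1% of all 49293 probe sets were, or 46.4% either way. Of the 27 members with several probe sets, 7 had all of them called in the same direction: HLA-C, HLA-E, TAP1, TAP2, CALR, HLA-DMA and HLA-DMB. None had probe sets called in both directions. Of the 10 probe sets that name several HLA genes, 1 was called higher and 9 did not pass, with values from -0.06 to 0.27. The one called names HLA-DRB1, HLA-DRB3, HLA-DRB4 and HLA-DRB5 and rose from 4.29 ± 0.15 to 4.56 ± 0.04 (SD, n = 3), by 0.27 ± 0.08 (adjusted p = 0.0323 over probe sets). The probe set naming HLA-B and HLA-C was dim, at 3.05 ± 0.11 and 3.17 ± 0.22, and did not pass (0.12 ± 0.12, adjusted p = 0.461 over probe sets).

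Several members are neighbours. In the order of a RefSeq gene table (GRCh38.p14), the protein-coding genes of the MHC class II region run from HLA-DRA to HLA-DPB1. TAP2 and PSMB8, another immunoproteasome subunit, lie side by side and fell alike, by 0.80 ± 0.05 and 0.77 ± 0.07. The next 4 genes, TAP1, PSMB9, HLA-DMB and HLA-DMA, rose by 0.76, 0.77, 1.85 and 1.74. BRD2, a bromodomain protein that follows them, fell by 0.41 ± 0.06 (adjusted p = 0.000887). On either side, HLA-DOB (0.01) and HLA-DOA (-0.09) did not pass. The run of 4 was noticed after the values were seen and no test of it was made, so it is a description of 1 region.

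**Figure D4:**
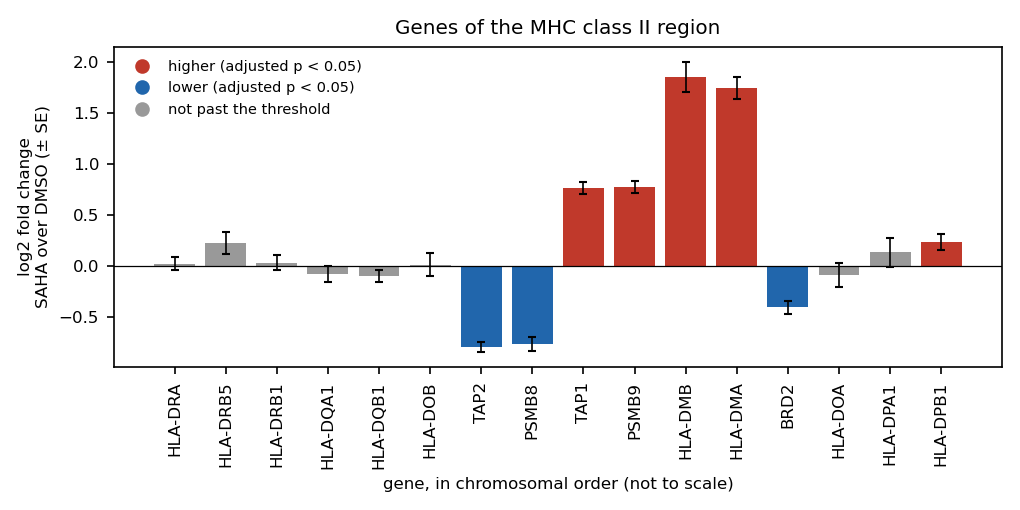
Log2 fold change of SAHA over DMSO (bars, vertical axis, ± SE from limma, 3 arrays per group) for the measured protein-coding genes of the MHC class II region in chromosomal order (horizontal axis, not to scale). TAP2 and PSMB8 at -0.80 and -0.77 stand next to TAP1, PSMB9, HLA-DMB and HLA-DMA at 0.76, 0.77, 1.85 and 1.74.

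Set side by side, the class I pathway had 6 of 14 measured genes higher and 4 lower (71.4% called, median 0.06), and the class II pathway 4 of 12 higher and 0 lower (33.3% called, median 0.08). The medians of both lie near that of all genes, at -0.01. The pathways differ in level as measured: 10 of the 14 class I genes and 2 of the 12 class II genes had a mean log2 value of at least 7, where 75.1% of all genes were called. The shares called are therefore not comparable as such, and their difference was not tested. Class I values ran from -1.11 to 0.76 and class II values from -0.10 to 1.85.

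The other genes of the pathway were read from lists by role, against the 48.3% of all genes called. Of all genes with a mean log2 value of at least 7, 75.1% were called. That level was reached by all 9 proteasome and all 10 peptide handling genes, and by 8 of 10 interferon genes. It was also reached by 9 of 12 endosomal genes, 6 of 10 other regulators and 2 of 10 MHC-like molecules. The share called in a list is therefore not comparable as such with 48.3%. All 9 measured proteasome genes passed, 6 lower and 3 higher, with a median of -0.25. PSMB10 fell by 0.78 ± 0.06 and PSMB8 by 0.77 ± 0.07, while PSMB9 rose; for PSMB8 and PSMB9 the dimmest of 3 probe sets did not pass (-0.29 and 0.09). These 3 are the inducible catalytic subunits that replace the constitutive ones in the immunoproteasome, and they too split. Of 10 measured genes of interferon gamma signalling, 5 rose and 3 fell (median 0.19). IFNGR2, the signalling chain of the receptor, fell from 10.12, 10.19 and 10.05 to 8.25, 8.17 and 8.13, a log2 fold change of -1.94 ± 0.06 (adjusted p = 3.63e-07). JAK1, the kinase bound to the other receptor chain, rose by 1.07 ± 0.05 and IRF2, a repressor and activator of interferon genes, fell by 1.39 ± 0.07. IFNGR1, the ligand-binding chain, named here after its value was seen, rose by 0.80 ± 0.05. The chains of the interferon gamma receptor, like those of TAP, so moved in opposite directions.

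Of 10 other regulators of MHC genes, 4 fell and 1 rose (median -0.11). NFYC, a subunit of the CCAAT-binding factor NF-Y, fell by 1.07 ± 0.07, and in 6 of its 7 probe sets by 0.76 to 1.08. NFYA, the DNA-contacting subunit, rose by 0.37 ± 0.07, with 2 of its 5 probe sets called higher (0.37 and 0.72) and 3 not past the threshold (0.25, 0.02 and 0.02). RFX1 fell by 0.68 ± 0.06 and EZH2, the histone H3K27 methyltransferase, by 0.56 ± 0.09. Another EZH2 probe set was also called lower (-0.68), but its dimmest was called higher (0.69 ± 0.16, adjusted p = 0.00774 over probe sets). Of 10 genes of peptide handling in the cytosol and endoplasmic reticulum, 3 rose and 2 fell (median 0.04). The bleomycin hydrolase BLMH fell by 0.62 ± 0.05, tripeptidyl peptidase TPP2 rose by 0.46 ± 0.06 and the translocon subunit SEC61B rose by 0.30 ± 0.05.

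Of 12 endosomal proteases and class II routing genes, 4 rose and 4 fell (median 0.01). LGMN, the asparaginyl endopeptidase that starts antigen and CD74 cleavage, rose from 9.96, 9.97 and 10.09 to 11.81, 11.81 and 11.83, by 1.81 ± 0.06 (3.51-fold, adjusted p = 3.63e-07), and all 6 of its probe sets gave 1.62 to 1.93. CTSH rose by 0.87 ± 0.08, although its dimmer probe set was called lower (-0.31, adjusted p = 0.0277 over probe sets). CTSC fell by 0.39 ± 0.06. Of 10 MHC-like molecules, 3 rose and none fell (median 0.12): AZGP1 by 0.94 ± 0.08, the lipid-presenting CD1D by 0.71 ± 0.09 and PROCR by 0.26 ± 0.06. The other probe set of CD1D gave -0.07 (adjusted p = 0.65 over probe sets).

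**Figure D5:**
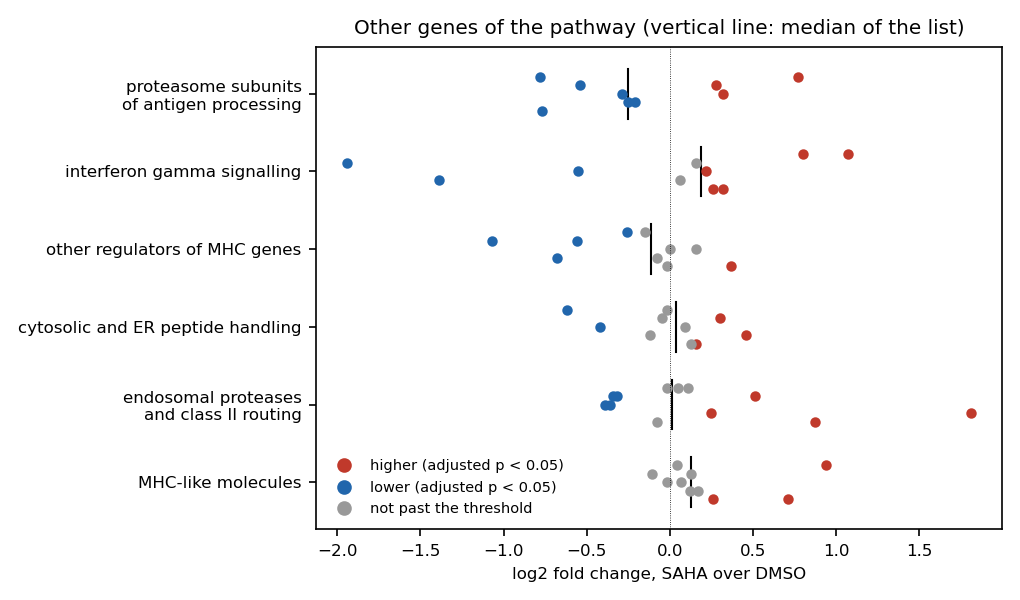
Log2 fold change of SAHA over DMSO (horizontal axis) for each measured gene of 6 lists of the wider pathway, coloured by the call, with a vertical line at the median of each list. Points lie on both sides of 0 in every list, with IFNGR2 at the far left (-1.94) and LGMN at the far right (1.81).

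Markers of the line and of immune cells were read beside these results. VIM (mean log2 value 13.99), AXL (12.42) and CD44 (11.95) of mesenchymal cells were bright, with AXL (-0.38) and CD44 (-0.57) called lower. Of 5 luminal markers, KRT18 (mean 11.80), KRT8 (10.35) and EPCAM (8.21) had higher means than ESR1 (5.99) and PGR (3.33), and KRT18 (-0.55) and EPCAM (-0.93) were called lower. Of 15 measured markers of leukocytes, B cells, myeloid and T cells, 4 were higher and 2 lower, and their mean log2 level ran from 5.63 to 5.68 over the DMSO arrays and from 5.77 to 5.89 over the SAHA arrays. PTPRC, the common leukocyte antigen, had the lowest mean of the 15, at 3.29, and did not pass (-0.09 ± 0.10). The highest means were those of LCP1 (11.58), CD68 (9.09) and ITGAX (7.23). CORO1A, an actin regulator of leukocytes, rose by 1.84 ± 0.11, CD14, a monocyte coreceptor, by 1.01 ± 0.09, LCP1 by 0.26 ± 0.06 and CD79B of B cells by 0.22 ± 0.07. The dimmest CD79B probe set was called lower (-0.31, adjusted p = 0.0466 over probe sets), and its remaining one did not pass (-0.11). The myeloid marker CD68 (-0.24 ± 0.06) and the T cell marker CD3E (-0.25 ± 0.07) were called lower, and the other 9, among them ITGAX (-0.01), ITGAM (-0.12) and CSF1R (0.00), did not pass. Their part in the results was not tested. The arrays of a group correlated at 0.9968 or more across probe sets, against 0.9696 at most between groups. The difference between the 3' and 5' control sets of ACTB, a measure of RNA integrity, was 0.89 ± 0.16 (SD, n = 3) with DMSO and 0.61 ± 0.06 with SAHA, with no overlap of the groups (exact permutation test, two-sided, p = 0.1, the lowest possible). The same difference for GAPDH went the other way, at 0.03 ± 0.02 with DMSO and 0.06 ± 0.02 with SAHA (exact permutation test, two-sided, p = 0.1). The part of the ACTB difference in the results was not tested beyond the covariate, and that of GAPDH was not tested. With the ACTB difference as a covariate 10 members were higher and 3 lower.

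The values of RMA make the arrays' distributions equal, so a shift of most transcripts cannot be read from them. Centred on ribosomal protein genes, which moved the median of all genes to 0.13, 12 members were higher and 3 lower, and 66.9% of all called genes were higher, against 50.9% without centring. Centred on poly-A spike-ins, with the median at 0.17, 14 members were higher and 3 lower, and 71.4% of called genes were higher. TAP2, ERAP1 and ERAP2 were the members still lower in both, and no called member changed direction in any setting.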

How the data were processed

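RNA of 3 DMSO and 3 SAHA samples was turned into biotin-labelled cRNA by in vitro transcription from the 3' end, per the labels' protocols. The deposited values are log2 expression per probe set, made with RMA per the submitters' processing notes, with software and version not given in the sources used here. They ran from 2.33 to 14.33 over 49395 probe sets, 102 of them controls. The platform annotation gave gene names, with symbols looked up by Entrez identifier in a RefSeq table of GRCh38.p14; 44988 probe sets named 1 gene, 1832 several and 2473 none. Each gene was represented by its brightest probe set on average. Groups and replicate numbers came from the labels.

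SAHA minus DMSO was tested with limma 3.58.1 in R 4.3.3 (lmFit and eBayes, no covariate, no filter on level), two-sided, at 0.05 after Benjamini-Hochberg adjustment across the 18132 genes or, where said, the 49293 probe sets. With 3 arrays per group, their number limits precision. The fit was tested on simulated data. All members are named. From each pathway list the 3 genes with the smallest p are named, and the strongest call against most of the list. Members and lists were chosen with earlier results of these data known. Motifs were searched as exact letters on both strands. Alternatives were the replicate block, other choices of probe sets, filters on level, scalings, variance models, a threshold of 0.01, the ACTB 3' to 5' covariate and leaving out each array. Figures were drawn with matplotlib 3.10.9.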

Additional observations from a re-analysis of the deposited data

How the results depend on the processing

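Over all settings run, no called member reversed, and of 589 values of single members under another setting 527 kept their side of the threshold, 37 lost the call and 25 gained one. HLA-C, HLA-E, TAP1, TAP2, CALR, ERAP1, HLA-DMA, HLA-DMB and IFI30 kept their calls in every setting that could be run for them. HLA-B lost its call only without _x_at and _s_at probe sets and ERAP2 only with its next brightest probe set. The count of members higher lay between 8 and 9 and that of members lower between 4 and 5 when each array was left out in turn. Members lower were 3 after centring on poly-A spike-ins or ribosomal protein genes and 3 with the ACTB covariate. Counted as probe sets in place of genes, 33 were higher and 14 lower, among 22850 called in all, because a gene then counts with each of its probe sets. With the replicate number as a block, 8 members were higher and 5 lower, and 8291 genes and 21454 probe sets were called, the latter a setting added after the data were seen. Same-numbered arrays did not deviate together (correlations of -0.10, -0.08 and -0.03), and the labels state no pairing. With 3 arrays per group this cannot settle whether same-numbered samples were handled together. Without the arrays' detection calls, values near the floor limit what can be said of dim class II genes.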
